A study of Homo sapiens with 9 samples.

Results

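Dual-specificity MAP kinase phosphatases were measured by array in the human liposarcoma line LiSa-2 after hyaluronidase from bovine testis (HAase), which breaks down hyaluronan, a polysaccharide of the extracellular matrix. The members were chosen by name, as every probe set whose single gene symbol in the platform annotation was DUSP1, DUSP2, DUSP4, DUSP5, DUSP6, DUSP7, DUSP8, DUSP10, DUSP14 or DUSP16. These were 22 of the 41091 probe sets with 1 symbol and 10 of the 19775 genes that those represent. The cells, grown on plates in medium with bovine serum, received 400 µg/mL HAase for 24 h, the same dose for 6 h, or phosphate-buffered saline (PBS), with 3 Affymetrix arrays per group and 9 in all. PBS cells were harvested only at 24 h according to the design text of the series, so for the 6 h arrays the enzyme and the time of harvest cannot be told apart. All arrays come from 1 cell line, and no label tells if replicates came from different cultures. Each p-value therefore reflects the spread among these arrays alone, and that spread may be technical. In bulk RNA, fewer cells making a transcript and less of it per cell cannot be told apart.

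MAP kinases are active when both a threonine and a tyrosine of their activation loop are phosphorylated, and the phosphatases of this family switch them off by removing both phosphates. DUSP5, DUSP6 and DUSP7 act selectively on the growth factor kinases ERK1 and ERK2, DUSP5 in the nucleus and the other members of the class in the cytoplasm. DUSP8, DUSP10 and DUSP16 prefer the stress kinases JNK and p38. DUSP1, DUSP2 and DUSP4 are nuclear enzymes of broader specificity whose genes are switched on quickly by mitogens and stress, and DUSP14 is a small atypical member that lacks the N-terminal kinase-docking domain of the others. Several of these genes are transcribed in response to the kinases that their products inactivate, so that they form negative feedback loops.

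The bases upstream of 4 of these genes are shown because DUSP6 had the largest changes over PBS of the ERK-selective class and DUSP1 the largest of the nuclear class at 6 h (DUSP4 changed more at 24 h), and DUSP8 and DUSP10 moved in opposite directions within the stress-kinase class. A promoter entry was found for 8 of the 10 genes in RefSeq sequences of build GRCh38.p14. Each line gives the 250 bases before the annotated start site, 5′ to 3′, with the matches to the motifs searched on both strands in capitals. DUSP10 has 2 entries, and the one shown is the first in the table. The other, chr1:221736901-221737150, held no match.
DUSP6, chr12:89352502-89352751, minus strand: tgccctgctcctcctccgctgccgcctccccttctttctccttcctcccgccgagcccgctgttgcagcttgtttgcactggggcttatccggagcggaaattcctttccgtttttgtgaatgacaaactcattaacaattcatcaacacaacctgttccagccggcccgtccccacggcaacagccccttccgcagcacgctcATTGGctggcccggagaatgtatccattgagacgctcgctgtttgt
DUSP1, chr5:172771196-172771445, minus strand: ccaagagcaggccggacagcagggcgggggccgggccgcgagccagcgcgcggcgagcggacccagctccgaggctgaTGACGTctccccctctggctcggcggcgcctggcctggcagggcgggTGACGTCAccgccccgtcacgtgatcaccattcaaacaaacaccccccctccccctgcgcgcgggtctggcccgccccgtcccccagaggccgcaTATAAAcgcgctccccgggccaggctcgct
DUSP8, chr11:1572272-1572521, minus strand: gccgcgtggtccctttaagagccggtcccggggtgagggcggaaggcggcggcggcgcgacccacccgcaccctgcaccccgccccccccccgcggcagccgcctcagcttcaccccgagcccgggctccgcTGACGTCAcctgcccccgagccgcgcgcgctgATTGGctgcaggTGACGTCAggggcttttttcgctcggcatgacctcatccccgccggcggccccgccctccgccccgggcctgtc
DUSP10, chr1:221742090-221742339, minus strand: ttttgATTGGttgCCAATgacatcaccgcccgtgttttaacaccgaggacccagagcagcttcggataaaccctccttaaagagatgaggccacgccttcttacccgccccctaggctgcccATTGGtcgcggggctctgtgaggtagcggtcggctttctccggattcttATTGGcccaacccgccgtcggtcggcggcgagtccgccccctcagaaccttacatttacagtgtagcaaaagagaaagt
The motifs searched were the core of the cAMP response element (TGACGT), the AP-1 site (TGANTCA), an ETS core (CCGGAA), the CCAAT box (CCAAT), the TATA box (TATAAA) and the serum response element, and no match overlapped a match to another motif. The cAMP response core was found at 2 places upstream of DUSP1 and at 2 places upstream of DUSP8, against a share of 7.10% of all 35116 promoter entries with at least 1. DUSP1 also held a TATA box (10.7% of all entries), 30 bases before its start site. CCAAT boxes lay at 4 places before DUSP10 and at 1 place each before DUSP6 and DUSP8 (32.0% of all entries). None of these 4 windows held the AP-1 site (6.57%), the ETS core (14.5%) or the serum response element (1.16%) as spelled here. The windows of DUSP2, DUSP7, DUSP14 and DUSP16, which are not shown, held no match to any of the motifs searched. A match is a run of letters and not a site of binding, which was not measured.

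The deposited values are linear signals per probe set, compared here as log2(signal + 16), a scale on which fold changes of dim genes are understated. For each gene the probe set with the highest mean was used, and 13842 genes above the 30th percentile of mean signal were fitted together with limma, with Benjamini-Hochberg adjustment over all of them and a threshold of 0.05. Of the 10 phosphatase genes 9 entered this fit, and each of the 9 also lay above the filter's signal of 34.7 in PBS, where the lowest mean was 87.5. DUSP2 did not pass the filter. Arrays of 1 group correlated with each other at r of at least 0.989 across the genes tested, and arrays of different groups at 0.973 at most. The background of an array was taken as its highest signal among 27 controls from Bacillus subtilis, which lay between 34.2 and 65.0. Markers of the labelled cell type were present: 7, 9 and 9 of 10 adipocyte markers exceeded this control on all 3 arrays of HAase 24 h, HAase 6 h and PBS. The summed signal of these markers was 29062 to 33708 at 24 h and 45331 to 47612 at 6 h, against 58074 to 60291 in PBS, and its part in the results below was not tested. FABP4 made the largest part of this sum, with means of 26097 at 24 h, 31931 at 6 h and 33295 in PBS. Of the 9 adipocyte markers tested, 9 were called lower at 24 h and 7 at 6 h, beside 22.9% and 27.4% of all genes. Of 7 epithelial markers 5 were above the control on no array of each group, as were 2, 3 and 3 of 6 leukocyte markers and 4, 3 and 4 of 6 endothelial markers at 24 h, at 6 h and in PBS. The summed epithelial signal was 226 to 315 at 24 h and 272 to 345 at 6 h, against 231 to 342 in PBS. The leukocyte sum was 318 to 350 at 24 h and 196 to 251 at 6 h, against 189 to 235 in PBS, and LCP1 was called higher at 24 h. The endothelial sum was 432 to 463 at 24 h and 384 to 436 at 6 h, against 285 to 354 in PBS, and PECAM1 was called higher at both times. The part of these markers in the results was not tested.

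The ERK-selective phosphatase genes were higher at both times of HAase, while of the stress-kinase phosphatase genes none passed at 24 h and DUSP8 and DUSP10 passed in opposite directions at 6 h. After 24 h, DUSP5, DUSP6 and DUSP7 had all risen, by 6.23-fold, 14.7-fold and 1.74-fold, and none of DUSP8, DUSP10 and DUSP16 passed the test, where 40.4% of all genes tested changed and 17.5% rose. At 6 h the same ERK-selective genes were 7.31-fold, 23.8-fold and 1.62-fold higher, DUSP8 had risen by 1.58-fold, close to the value of DUSP7, and DUSP10 had fallen by 1.22-fold, where 42.4% of all genes changed. Averaged over the 3 genes of a class, the log2 level relative to PBS was 2.44 for the ERK-selective class at 24 h and -0.15 for the stress-kinase class, a difference of 2.59 ± 0.04 (SD of arrays within groups, n = 3 each). At 6 h the class means were 2.71 and 0.20, a difference of 2.51 ± 0.06, and the second of these means averages genes that moved in opposite directions. Array by array this difference was 2.55, 2.61 and 2.60 at 24 h and 2.49, 2.59 and 2.45 at 6 h, against -0.04, 0.04 and 0.00 in PBS, so that the HAase arrays lay far outside the range of the PBS arrays. It is a score over chosen genes and was given no test, and DUSP6 had the largest fold change of the 6 genes.

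**Figure D1:**
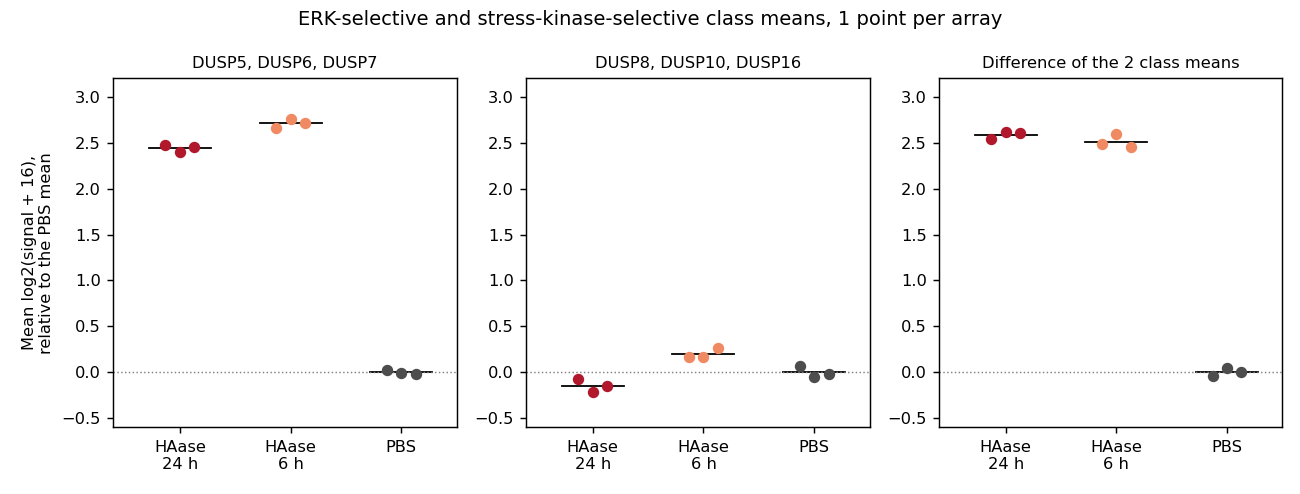
Mean log2(signal + 16) of the 3 ERK-selective genes, of the 3 stress-kinase genes and the difference of the class means, each relative to its PBS mean, with 1 point per array and a line at the group mean. The ERK-selective means of the HAase arrays lie between 2.40 and 2.76, and the stress-kinase means between -0.22 and 0.26.

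DUSP6, the cytoplasmic ERK phosphatase, showed the largest change of the family. Its signals were 5684, 5345 and 5307 on the arrays of HAase 24 h and 8467, 9354 and 8753 on those of HAase 6 h, against 367, 338 and 364 in PBS. The 3 groups did not overlap. The log2 fold change over PBS was 3.87 ± 0.06 at 24 h (SE, limma adjusted p = 1.48e-08) and 4.57 ± 0.06 at 6 h (6.75e-09). The level at 24 h was 1.62-fold lower than at 6 h (log2 fold change -0.70 ± 0.06, adjusted p = 1.16e-04). All 3 DUSP6 probe sets rose, beside 13.3% of all probe sets at 24 h and 11.9% at 6 h, and the log2 fold changes spanned 3.62 to 5.40 at 24 h and 4.40 to 6.37 at 6 h. The largest of these belongs to the dimmest probe set, which had 38.8, 43.0 and 36.3 in PBS and exceeded the control level there on 1 of 3 arrays, so its size is uncertain.

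DUSP5, the nuclear ERK phosphatase, has 1 probe set. It gave 2353, 2113 and 2420.4 after 24 h of HAase and 2503, 2685 and 2901 after 6 h, against 349, 389 and 328 in PBS. Every HAase array was far above every PBS array. The log2 fold change was 2.64 ± 0.09 at 24 h (SE, limma adjusted p = 3.27e-07) and 2.87 ± 0.09 at 6 h (3.06e-07). The 24 h arrays lay just below the 6 h arrays, and this difference did not pass the test (-0.23 ± 0.09, adjusted p = 0.0853). It passed with the 50th percentile filter (adjusted p = 0.0483) and with the trended and robust variance model (0.0386).

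DUSP7, a close relative of DUSP6, rose least in this class. Its signals were 551, 558 and 548 at 24 h and 514, 538 and 481 at 6 h, against 323, 294 and 313 in PBS. The HAase arrays stood above the PBS arrays at both times, by a log2 fold change of 0.80 ± 0.06 at 24 h (SE, limma adjusted p = 2.10e-05) and 0.69 ± 0.06 at 6 h (6.53e-05). The times did not differ past the test (0.11 ± 0.06, adjusted p = 0.200). The other DUSP7 probe set was dim, above the control level on 2, 1 and 1 of 3 arrays at 24 h, at 6 h and in PBS, and passed neither comparison with PBS (adjusted p = 0.406 and 0.791). With the mean of both probe sets, DUSP7 no longer passed at 24 h (adjusted p = 0.0857) or at 6 h (0.271).

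**Figure D2:**
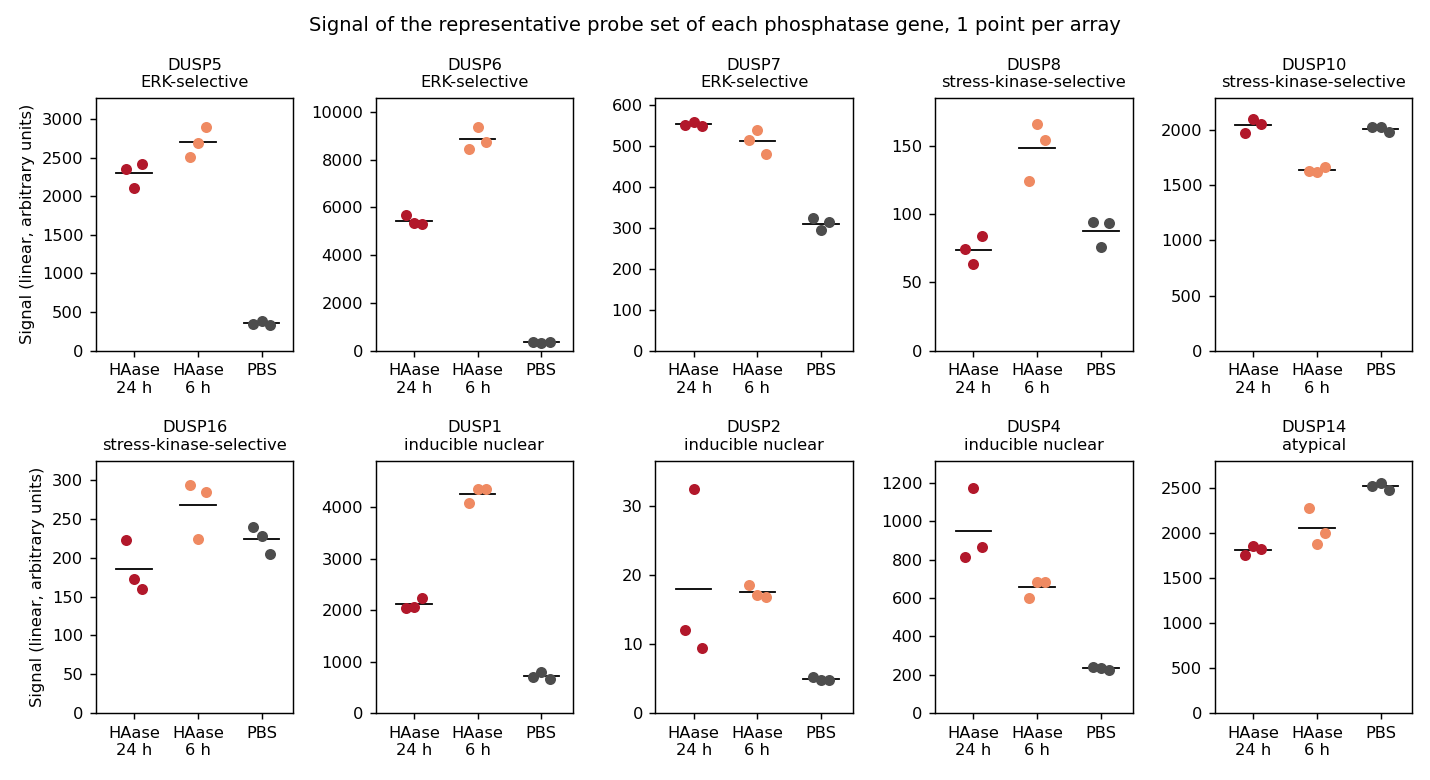
Linear signal of the representative probe set of each of the 10 genes, with 1 point per array, a line at the group mean and every axis starting at 0. DUSP5, DUSP6, DUSP7, DUSP1 and DUSP4 stand above PBS at both times, DUSP8 peaks at 6 h, DUSP10 dips at 6 h, DUSP14 lies below PBS, and DUSP2 is at background.

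Within the stress-kinase class the genes did not move together. DUSP8 had signals of 74.1, 63.5 and 84.1 at 24 h and 124, 166 and 154 at 6 h, against 93.9, 75.5 and 93.1 in PBS. Its 6 h arrays lay above both other groups, which overlapped. It was 1.58-fold higher at 6 h (log2 fold change 0.66 ± 0.13 SE, limma adjusted p = 0.00449), while at 24 h the change was -0.20 ± 0.13 (0.257, 95% confidence interval -0.51 to 0.10), and 24 h was below 6 h by a log2 fold change of -0.87 ± 0.13 (0.00170). The other DUSP8 probe set pointed the same way, with 28.6 ± 3.98 at 24 h and 122 ± 39.4 at 6 h, against 62.4 ± 31.1 in PBS (SD, n = 3 each), but it did not pass at 6 h over PBS (adjusted p = 0.0799 over probe sets), and none of its 24 h arrays exceeded the control level. With the mean of both probe sets DUSP8 passed as lower at 24 h (-0.47, adjusted p = 0.0422).

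DUSP10, which inactivates JNK and p38, went the other way at 6 h. Its signals were 1975, 2098 and 2058 at 24 h and 1632, 1620.2 and 1669.9 at 6 h, against 2031, 2024 and 1984 in PBS. The 6 h arrays lay below all others, and the 24 h arrays overlapped with PBS. It fell by 0.29 on the log2 scale at 6 h (SE 0.05, limma adjusted p = 0.00152), and at 24 h the difference from PBS was 0.02 ± 0.05 (0.759, 95% confidence interval -0.09 to 0.13). Its other probe set also fell at 6 h (-0.34 ± 0.09, adjusted p = 0.0206 over probe sets).

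DUSP16, a JNK phosphatase that moves between nucleus and cytoplasm, had signals of 223, 173 and 159.9 at 24 h and 294, 223 and 285 at 6 h, against 239, 227 and 205 in PBS. Both HAase groups overlapped with PBS and neither comparison with PBS passed (log2 fold change -0.26 ± 0.14 SE at 24 h, limma adjusted p = 0.184, and 0.23 ± 0.14 at 6 h, 0.226). The 95% confidence intervals, -0.59 to 0.07 and -0.09 to 0.56, allow changes of up to about that size. The 24 h level was below the 6 h level (-0.50 ± 0.14, adjusted p = 0.0294). That call was lost without HAase 24 h replicate 2 or 3 or HAase 6 h replicate 1 or 3 (adjusted p between 0.0867 and 0.0923), without a filter (0.0507), with 2 groups in the fit (0.0639) and with the mean of its probe sets (0.0610). Of the other 3 DUSP16 probe sets, 2 lay below the filter, and the third had differences from PBS of -0.25 at 24 h and -0.27 at 6 h.

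Both nuclear phosphatase genes that could be tested rose at both times, with opposite courses between the times. DUSP1, the immediate early phosphatase that acts on p38, JNK and ERK, had signals of 2036, 2069 and 2242 at 24 h and 4080.0, 4338 and 4350.1 at 6 h, against 698, 811 and 665 in PBS. The groups did not overlap and 6 h was highest. The log2 fold change over PBS was 1.53 ± 0.08 at 24 h (SE, limma adjusted p = 3.62e-06) and 2.53 ± 0.08 at 6 h (3.92e-07), and 24 h was 2.01-fold below 6 h (8.19e-05). The other DUSP1 probe sets were dim. Of these, 1 was above the control level on all 3 arrays at 6 h and on none in PBS, at least 1.53-fold higher at 6 h (adjusted p = 9.75e-04 over probe sets), and the other did not pass (0.358). At 24 h neither passed (0.184 and 0.961). With the mean of all 3 probe sets the log2 fold change of DUSP1 was 0.70 at 24 h (adjusted p = 0.0106) and 1.73 at 6 h (1.11e-04).

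DUSP4, a nuclear phosphatase for ERK and JNK, was highest at 24 h. Its signals were 814, 1169.5 and 863 at 24 h and 599, 684 and 684 at 6 h, against 243, 235 and 226 in PBS. The groups did not overlap, and 1 array of 24 h was well above the others of its group. The log2 fold change was 1.93 ± 0.13 at 24 h (SE, limma adjusted p = 1.37e-05) and 1.42 ± 0.13 at 6 h (9.78e-05). All 3 DUSP4 probe sets rose at both times, between 1.22 and 1.93 at 24 h and between 0.80 and 1.42 at 6 h. The increase between the times (0.51 ± 0.13, adjusted p = 0.0201) was lost without HAase 6 h replicate 1 (0.0660) and with 2 groups in the fit (0.0544), and 1 of the 3 probe sets missed the threshold (0.0636 over probe sets).

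DUSP2, a nuclear phosphatase best known from activated lymphocytes, was at background. Its single probe set gave 12.0, 32.5 and 9.46 at 24 h and 18.5, 17.1 and 16.8 at 6 h, against 5.29, 4.90 and 4.86 in PBS. No array exceeded its control level, so no fold change is given, although no HAase array overlapped with PBS. In a fit of all genes with no filter it did not pass (limma adjusted p = 0.0729 at 24 h and 0.0577 at 6 h).

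DUSP14 was the member that fell at both times. Its signals were 1761, 1864 and 1823 at 24 h and 2279, 1884 and 2011 at 6 h, against 2526, 2561 and 2481 in PBS. Every HAase array was below every PBS array. It was 1.39-fold lower at 24 h (log2 fold change -0.47 ± 0.07 SE, limma adjusted p = 0.00135) and 1.23-fold lower at 6 h (-0.30 ± 0.07, 0.0129). The 6 h call was lost when the arrays were set to equal medians (adjusted p = 0.0561).

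**Figure D3:**
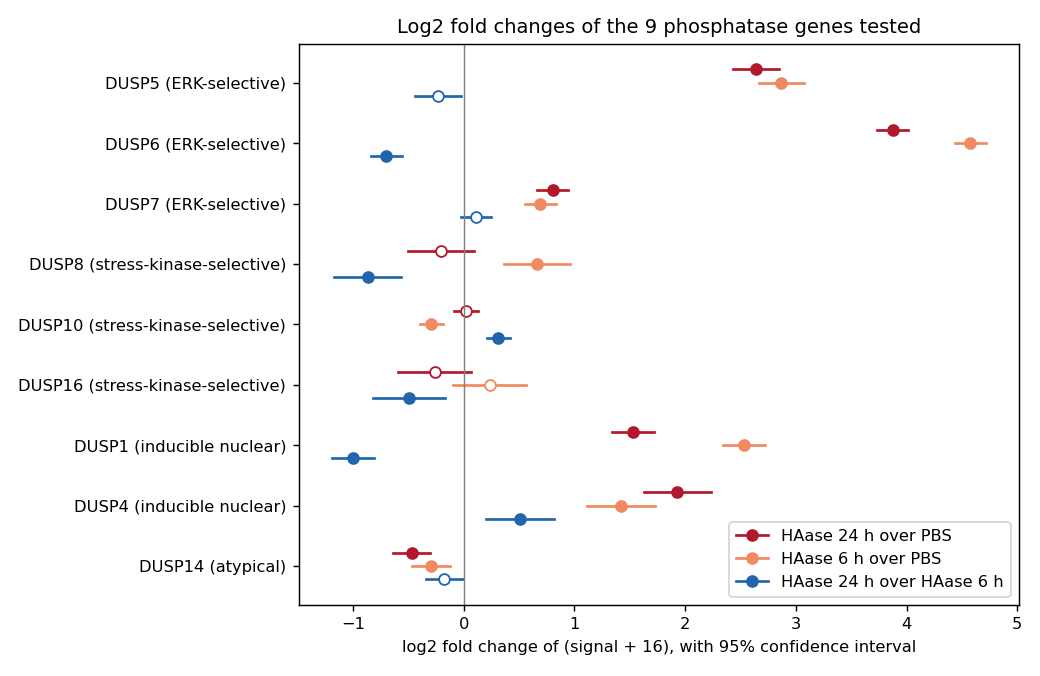
Log2 fold changes of the 9 genes tested with 95% confidence intervals, for HAase 24 h over PBS, HAase 6 h over PBS and HAase 24 h over HAase 6 h. Filled points passed the adjusted threshold and open points did not. The ERK-selective and nuclear genes lie to the right of 0 in both comparisons with PBS, and DUSP14 to the left.

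Counted over the family, 5 of the 9 genes tested rose at 24 h and 1 fell, while 17.5% of all 13842 genes tested rose and 22.9% fell (40.4% changed in all). The median log2 fold change was 0.80 for the 9 and -0.027 for all genes. At 6 h 6 rose and 2 fell, beside 15.0% and 27.4% of all genes (42.4% in all), with medians of 0.69 and -0.084. Rises of 2-fold or more were called for 4 of the 9 genes at each time, beside 4.07% of all genes at 24 h and 3.43% at 6 h, and these were DUSP5, DUSP6, DUSP1 and DUSP4. Both comparisons use the same PBS arrays. Between the times, 2 members were higher at 24 h (DUSP10 and DUSP4) and 4 lower (DUSP6, DUSP8, DUSP16 and DUSP1), beside 19.8% and 13.3% of all genes (33.1% in all). Groups were fully separated, with no overlap of arrays, for 6 of the 9 members at 24 h against PBS (52.0% of all genes), for 8 at 6 h against PBS (54.2%) and for all 9 between the times (46.0%), where the nearest DUSP16 arrays of the groups both round to 223.

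Of the 22 probe sets, 19 passed a filter at the same percentile over probe sets and were fitted with 28764 in all. At 24 h 9 of these rose and 1 fell, where 13.3% of all probe sets rose and 17.1% fell (30.4% in all). At 6 h 11 rose and 3 fell, beside 11.9% and 18.4% (30.3% in all). Between the times 4 were higher at 24 h and 8 lower, beside 12.1% and 10.1% (22.2% in all). The ERK-selective class had 5 of 6 probe sets higher at both times. In the stress-kinase class 0 of 6 passed at 24 h (0 also at an unadjusted p under 0.05 with limma), and at 6 h 1 rose and 2 fell.

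**Figure D4:**
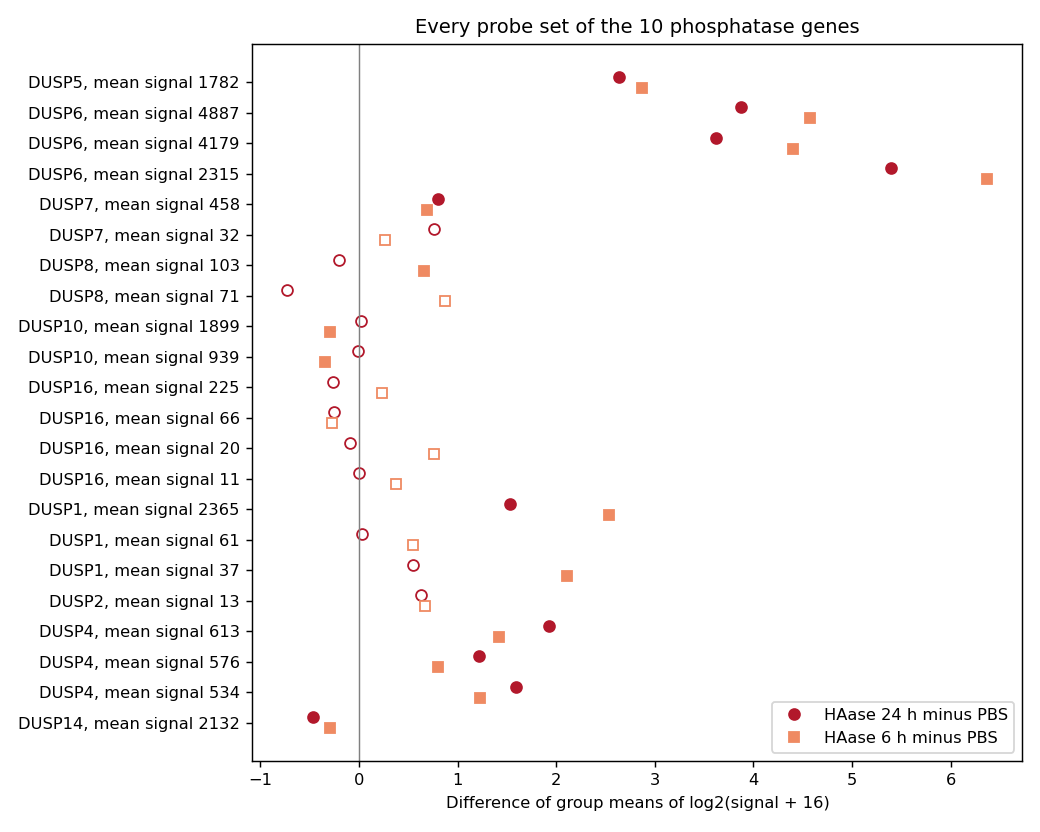
Differences of group means of log2(signal + 16) for each of the 22 probe sets, HAase 24 h minus PBS and HAase 6 h minus PBS, with the mean signal over 9 arrays in the row label. Filled symbols passed the adjusted threshold over probe sets, and open ones did not or were not tested. Probe sets of DUSP6 and DUSP4 all lie to the right of 0, while the dim probe sets of DUSP7 and DUSP1 are mostly open.

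Across the 9 arrays DUSP5, DUSP6 and DUSP7 had similar profiles, with pairwise Pearson r between 0.957 and 0.995. DUSP8 and DUSP10 ran opposite to each other (r = -0.92). These correlations describe 9 arrays in 3 groups and mostly repeat the group differences. Among all other genes tested, those closest to DUSP6 were SMIM3, IRAK2 and HBEGF (r = 0.999, 0.999 and 0.998), and those closest to DUSP5 were MAFF, YRDC and BMP2 (r = 0.998, 0.997 and 0.997). DOK3, ABHD17C and ATP2B1 were closest to DUSP7 (r = 0.998, 0.993 and 0.993). For DUSP8 they were ISOC1, GNL3L and EIF1B (r = 0.984, 0.975 and 0.968), and for DUSP10 SNHG33, SEC22C and MPV17L2 (r = 0.994, 0.991 and 0.990). DUSP16 had no neighbour above GTF3C4 (r = 0.923), DDX27 (0.893) and SP110 (0.889).

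Among the kinases that these phosphatases act on, most did not pass the test at 24 h, as was the case for all genes. Of 13 MAP kinase genes listed 9 were tested, and 3 rose at 24 h and none fell. Of all genes tested 17.5% rose and 22.9% fell at that time (40.4% changed in all). MAPK13, a p38 isoform, was at least 3.89-fold higher at 24 h and at least 2.71-fold higher at 6 h (limma adjusted p = 6.86e-04 and 0.00235), with PBS arrays at or below the control level. The JNK gene MAPK8 rose by 0.27 ± 0.06 at 24 h on the log2 scale (SE, adjusted p = 0.00851) and by 0.18 ± 0.06 at 6 h (0.0469). Among the 5 MAP kinase kinases tested, 1 rose and 1 fell at 24 h. At 6 h 1 rose and 2 fell, where 15.0% of all genes rose and 27.4% fell. MAP2K6, an activator of p38, fell by 2.78 on the log2 scale at 24 h (adjusted p = 1.96e-05, above the control level on 2 of 3 arrays there) and by 2.02 at 6 h (1.46e-04). MAP2K1, an activator of ERK, rose by 0.70 ± 0.07 at 24 h (8.35e-05) and by 0.26 ± 0.07 at 6 h (0.0138). MAP2K5 fell at 6 h (-0.51 ± 0.13, 0.0126). Of the 17 upstream kinases tested 3 rose and 2 fell at 24 h, where 17.5% of all genes tested rose and 22.9% fell, so the share of this list that changed is not above that of all genes. The largest of these changes was that of MAP3K5, which activates the JNK and p38 pathways (1.76 ± 0.12, adjusted p = 1.72e-05).

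Genes known as transcriptional targets of ERK were mostly higher after HAase. The list was chosen with earlier results of these data known. Of 19 tested 17 rose and 2 fell at 24 h, and 18 rose and 1 fell at 6 h, where 17.5% of all genes rose and 22.9% fell at 24 h and 15.0% and 27.4% at 6 h. The list had median log2 fold changes of 1.66 and 2.16 where all genes had -0.027 and -0.084. The genes that fell, named after their values were seen, were SPRY1 and EPHA4 at 24 h and EPHA4 at 6 h. The ETS factor genes ETV1 and ETV4 were at least 3.43-fold and at least 5.35-fold higher at 24 h (limma adjusted p = 9.95e-07 and 9.16e-05). EGR1, an immediate early factor, had 1159 ± 43.1 at 24 h and 13061 ± 364 at 6 h, against 388 ± 20.5 in PBS (SD, n = 3 each), and its 24 h level was below its 6 h level by a log2 fold change of -3.48 ± 0.06 (SE, adjusted p = 1.13e-07). Targets of the stress kinases rose in 10 of 12 and fell in 2 at both times, beside the same shares of all genes, with medians of 0.87 at 24 h and 1.38 at 6 h. The largest rises were those of the chemokine gene CXCL8 (log2 fold change 7.76 ± 0.08 SE at 24 h and 7.16 ± 0.08 at 6 h, limma adjusted p = 3.55e-09 and 3.90e-09), the cytokine gene IL6 (3.15 ± 0.09 and 4.72 ± 0.09, 1.46e-07 and 3.95e-08) and the prostaglandin synthase gene PTGS2 (2.97 ± 0.12 and 4.43 ± 0.12, 9.02e-07 and 1.71e-07). Both genes that fell, named after their values were seen, were ATF3 and GADD45G. Between the times 9 of these 12 were lower at 24 h and 2 higher, beside 13.3% and 19.8% of all genes. Of the 19 ERK targets, 8 were lower at 24 h than at 6 h, EGR1 among them, and 4 were higher. Many of the same genes respond to both arms of the pathway and to other signals, and JUN is in both the target and the substrate lists.

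Phosphatases of other families that act on MAP kinases included genes that rose and genes that fell. The list counted here also holds PEA15, which is not a phosphatase, and PPP2R1A, a scaffold subunit of one. Of its 12 tested genes 4 rose and 3 fell at 24 h (40.4% of all genes changed), and 3 rose and 4 fell at 6 h (42.4%). PEA15 is among those that rose at both times, and PPP2R1A among those that fell at 6 h. PPM1L, a serine/threonine phosphatase of stress kinase pathways, was lower by 2.06 on the log2 scale at 24 h (-2.06 ± 0.10 SE, limma adjusted p = 1.96e-06) and at 6 h (-2.06 ± 0.10, 2.92e-06). PTPRR, a tyrosine phosphatase for ERK and p38, was at least 1.87-fold higher at 24 h (1.34e-04), with no PBS array above the control level, and did not pass at 6 h (0.0509).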

How the data were processed

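Gene expression in 9 LiSa-2 samples (3 groups of 3, grouped by sample titles) was measured with Affymetrix arrays. The authors deposited 1 linear signal intensity for each probe set, taken from CHP files according to the design text. How probes were summarised is not given in the sources used here. Their values show a scaling per array (means trimmed by 2% at each end of 500.07 to 500.075). Of 54675 probe sets, 62 were controls, 41091 had 1 symbol in the platform annotation, 1801 several and 11721 none. Those with several or none were left out, so some listed pathway genes are not analysed here.

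Computed here: log2(signal + 16), the probe set of highest mean per gene, the 30th percentile filter and limma 3.58.1 in R 4.3.3 (lmFit, eBayes) on all 9 arrays with 1 mean per group. The fit was also run on simulated data with independent noise and few changed probe sets. That setting differs from these data, so no support for the calls is drawn from it. With 3 arrays against 3, the smallest two-sided permutation p is 0.1. A group with no array above its control level has only a bound, written "at least". The number of arrays limits the precision. There were 19 alternatives. The phosphatases, the lists and the tests were chosen with earlier results of these data known. Named beyond the 10 phosphatases were the 3 genes of highest r per ERK-selective or stress-kinase member, and up to 4 genes past the test per pathway list by size of change.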

Additional observations from a re-analysis of the deposited data

Results flagged for a closer look

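Of the 9 phosphatase genes tested, 6 differed between HAase 24 h and HAase 6 h past limma's adjusted threshold of 0.05. This compares the HAase arrays of the 2 times directly, and since PBS was taken only at 24 h, length of treatment and time of harvest cannot be told apart in it. DUSP6 had a log2 fold change of 24 h over 6 h of -0.70 (adjusted p = 1.16e-04) and DUSP1 one of -1.0 (8.19e-05), while both stayed above PBS. DUSP8 gave -0.87 (0.00170), with 0.66 over PBS at 6 h and -0.20 at 24 h, a value not past the test. For DUSP16 the value was -0.50 (0.0294), without a call against PBS at either time, and its other tested probe set gave 0.02 (0.964 over probe sets). DUSP10 was higher at 24 h than at 6 h by 0.31 (0.00152), and DUSP4 by 0.51 (0.0201). The calls of DUSP16 and DUSP4 between the times were lost under some alternatives, as given above.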

How the results depend on the processing

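Each result was recomputed under 19 alternatives. Of 510 log2 fold changes of single phosphatase genes under an alternative, 494 kept direction and side of the threshold, 12 kept direction and missed the threshold, 4 kept direction and newly passed it, and none changed sign. The 6 and 8 genes called at 24 h and 6 h against PBS became 6 and 7 to 8, and the 6 called between the times became 4 to 7. The 6 at 24 h were not always the same genes. With the mean of probe sets DUSP7 was lost (limma adjusted p = 0.0857) and DUSP8 was gained as lower (0.0422). The counts over all genes lay between 4561 and 5998 at 24 h against PBS, 4629 and 6277 at 6 h against PBS, and 3269 and 5057 between the times. The difference of the class means, ERK-selective minus stress-kinase, was 2.65 with a pseudocount of 1, 2.42 with a pseudocount of 64 and 2.78 with the mean of probe sets at 24 h, and 2.45 with a pseudocount of 64 and 2.58 with the mean of probe sets at 6 h. Between the times it was 0.076, near its spread, and became -0.032 with a pseudocount of 64 and 0.20 with the mean of probe sets; the cause was not tested. Leaving out 1 array gave 2.57 to 2.61 at 24 h, 2.47 to 2.54 at 6 h and 0.05 (without HAase 6 h replicate 3) to 0.12 (without HAase 6 h replicate 2) between the times. No pairing of arrays by the replicate numbers of the titles was visible. Deviations of same-numbered arrays correlated between -0.05 and 0.03, and 1 of 9 arrays correlated best with its own number in both other groups. These values cannot tell if same-numbered arrays shared a culture. With the replicate block 5188 genes were called at 24 h and 5447 at 6 h against PBS and 4122 between the times, 6, 8 and 6 of them phosphatase genes of this family. Signals near the control level limit what DUSP2 and the dim probe sets of DUSP7, DUSP8, DUSP16 and DUSP1 can show.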

Other observations

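The list of other dual-specificity phosphatases mostly holds enzymes with substrates other than MAP kinases, and it also holds DUSP9, a cytoplasmic ERK phosphatase related to DUSP6 and DUSP7. DUSP9, named after its values were seen, was dim, above the control level on 0, 1 and 1 of 3 arrays at 24 h, at 6 h and in PBS, and did not pass (-0.53 ± 0.29 at 24 h and -0.51 ± 0.29 at 6 h, SE, limma adjusted p = 0.199 and 0.208). Of 22 tested genes of this list 6 rose and 7 fell at 24 h, and 3 rose and 9 fell at 6 h (limma, adjusted over all genes), with median log2 fold changes of -0.16 and -0.20. Of all genes tested 17.5% rose and 22.9% fell at 24 h, and 15.0% rose and 27.4% fell at 6 h. The cell cycle phosphatase gene CDC25B fell by 0.84 on the log2 scale at 24 h (adjusted p = 3.05e-05) and by 1.22 at 6 h (6.14e-06). CDC25C, which activates the mitotic kinase CDK1, fell by 1.27 at 6 h (1.88e-05) and was still below PBS at 24 h (-0.33, 0.0168). Its level at 24 h was above that at 6 h by 0.94 ± 0.09 (SE, 1.39e-04). SSH1, a phosphatase that activates the actin-severing protein cofilin, rose by 1.04 at 24 h (3.37e-05) and by 0.81 at 6 h (1.72e-04). CDC14B fell by 0.92 at 24 h (1.91e-05) and by 0.98 at 6 h (1.96e-05). Between the times 7 genes of this list were higher at 24 h and none was lower, beside 19.8% and 13.3% of all genes.

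The scaffold gene ARRB1 rose at 6 h by 1.04 on the log2 scale (limma adjusted p = 9.35e-06) and its 24 h level was below its 6 h level by a log2 fold change of -1.21 ± 0.06 (SE, 8.64e-06). Among the substrates of MAP kinases, ELK3, an ETS factor, had 7600 ± 398 at 24 h and 4888 ± 190.1 at 6 h, against 1208 ± 117 in PBS (SD, n = 3 each), and RPS6KA3, a kinase activated by ERK, rose by 0.46 at 24 h (1.23e-04) and by 1.24 at 6 h (8.35e-07).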
